A study of Mus musculus with 6 samples.

Results

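The 10 genes described here encode proteins that the liver releases into blood plasma to carry or clear other molecules: Alb, Ttr, Ambp, Hpx, Hp, Ahsg, Fetub, Itih2, Rbp4 and Trf. They were chosen by name among the 27573 gene names on the array, and each had 1 probe. Of the 10 probes, 8 carried the gene's current name in the array files. The probes of Alb and Hpx carried the older names Alb1 and Hpxn and were matched through their RefSeq accessions.

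The tumors grew from Hepa1-6, a mouse hepatoma cell line, inoculated beneath the skin of C57Bl/6 females. The groups were 3 tumors taken at day 15 (numbers 303, 313 and 318) and 3 taken at day 10 (302, 307 and 312). Tumor RNA carried the red dye Cy5 on each array. The green dye Cy3 carried a reference labelled as blood RNA of female C57Bl/6 mice that had received nothing. Host cells are part of each tumor sample, and since no label ties a tumor to a mouse, the p-values cover only the variation among these samples, which may in part be technical.

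Plasma carriers are made mainly by hepatocytes and are widely used as marks of hepatocyte differentiation. Their genes are driven by a shared group of liver-enriched transcription factors (among them the HNF4, FOXA and C/EBP families). Several of them, haptoglobin in particular, also change in the acute phase response to inflammation. In mice, haptoglobin and retinol binding protein are made by fat cells as well.

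The scanner software called 52.4% to 58.5% of an array's spots well above background in Cy5, and 47.5% to 52.8% in Cy3. On the array of tumor 312 an area holding 16.3% of the spots had lost signal, and the probe of Rbp4 lay in it. The hepatoma marker Gpc3 was 4.73 to 5.48 log2 units above the reference in all 6 tumors. Of the 13 hepatoma and epithelial markers, the keratins Krt8 and Krt18 lay at least 1 log2 unit under every other tumor in 313. They were at -2.98 and -2.14 there, where the other 5 tumors had -0.64 to 0.03 and -0.28 to 0.32. The median of the 13 markers was 0.13 in 313 and -0.28 to 0.86 in the other tumors. Of the 13, 4 were lowest in 313, against 30.4% of all genes. Markers of blood were uneven in the reference. In Cy3 the hemoglobin genes Hba-a1 and Hbb-bt, the red cell enzyme gene Alas2 and the neutrophil protease gene Mmp9 were well above background on all 6 arrays, and the neutrophil gene S100a9 on 5. The red cell gene Epb42 and the neutrophil gene S100a8 were not on any array, and Hba-a1 was 3.76 log2 units higher in tumors than in the reference (adjusted p = 1.76e-07). All 6 arrays had Cy3 signal well above background for the liver gene Alb. The same held for the carriers Ambp, Hpx, Hp, Fetub, Itih2, Rbp4 and Trf, and for the liver genes Afp and Foxa2. Above local background, Rbp4 averaged 208732 in Cy3 and 109918 in Cy5. Ratios are therefore given against the reference labelled blood, and every ratio also keeps any dye bias of its probe, since no dyes were swapped.

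Sequences before the start site are shown for the 4 genes in the promoter table that differed most between tumor 313 and the other tumors, and for Ahsg, the only carrier gene that stood more than 1 log2 unit above all others in tumor 318. RefSeq promoters (GRCm38.p6) were at hand for 7 of the 10 genes. The 250 bases before the start were searched on both strands for a FOXA core (TGTTTNC), a C/EBP core (TTGCNNAA) and an HNF4 core (AAAGTCC). Capitals mark the matches, and each sequence reads 5′ to 3′ on the strand of its gene.
Ambp, chr4:63154173-63154422, minus strand: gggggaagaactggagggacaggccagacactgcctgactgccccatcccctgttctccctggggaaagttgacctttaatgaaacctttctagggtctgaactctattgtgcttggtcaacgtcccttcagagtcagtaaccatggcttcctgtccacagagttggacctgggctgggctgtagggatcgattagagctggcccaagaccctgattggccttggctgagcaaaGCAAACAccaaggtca
Fetub, upstream of its first listed start, chr16:22918132-22918381, plus strand: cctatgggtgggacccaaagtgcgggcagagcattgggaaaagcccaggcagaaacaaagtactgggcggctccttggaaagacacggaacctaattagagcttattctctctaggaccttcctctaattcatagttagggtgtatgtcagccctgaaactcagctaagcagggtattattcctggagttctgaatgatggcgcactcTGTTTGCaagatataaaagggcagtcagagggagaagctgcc
Alb, chr5:90460620-90460869, plus strand: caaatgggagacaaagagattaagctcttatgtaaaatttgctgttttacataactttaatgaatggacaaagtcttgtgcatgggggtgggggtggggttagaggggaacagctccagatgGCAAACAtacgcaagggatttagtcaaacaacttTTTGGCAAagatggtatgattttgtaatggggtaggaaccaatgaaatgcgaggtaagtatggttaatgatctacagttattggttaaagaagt
Hpx, chr7:105600117-105600366, minus strand: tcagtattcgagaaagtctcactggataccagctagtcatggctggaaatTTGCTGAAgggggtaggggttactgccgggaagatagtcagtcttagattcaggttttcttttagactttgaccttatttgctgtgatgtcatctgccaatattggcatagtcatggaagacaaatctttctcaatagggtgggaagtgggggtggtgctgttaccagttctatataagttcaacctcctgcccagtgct
Ahsg, chr16:22891765-22892014, plus strand: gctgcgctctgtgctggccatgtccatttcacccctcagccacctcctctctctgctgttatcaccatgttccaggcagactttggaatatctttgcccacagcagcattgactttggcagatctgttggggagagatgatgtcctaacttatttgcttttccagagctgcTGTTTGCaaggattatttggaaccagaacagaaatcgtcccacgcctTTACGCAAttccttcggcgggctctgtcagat

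The FOXA core was found in 5 of the 7 genes (Ahsg, Alb, Ambp, Fetub and Rbp4), against 17.8% of all 32841 promoters in the table. The C/EBP core was also found in 5 of 7 (Ahsg, Alb, Hpx, Itih2 and Rbp4), against 9.57% of all promoters. None of the 7 held the HNF4 core, which 3.58% of all promoters hold. Fetub and Rbp4 have more than 1 listed start and were counted once if any of their promoters matched. No marked match overlapped another in the 5 sequences shown. Such matches describe letters and do not show binding.

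Tumors were first compared with the reference. Of the 10 carrier genes, 6 were higher in tumors (adjusted p under 0.05 and a log2 ratio of at least 1) and 0 were lower. Over all 16310 genes tested, 25.5% were called higher and 9.75% lower. Ttr and Ahsg entered the test through the tumor channel alone, their reference signal being at background on 6 and 5 arrays, so the count of 6 is not read against that share. The 6 were the heme and iron proteins Hp, Trf and Ambp, the hormone carrier Ttr, the main plasma protein Alb and the fetuin Ahsg. Hpx, Fetub, Itih2 and Rbp4 did not pass. In 3 of the 10 genes (Hp, Ahsg and Trf) the ratio was above 0 on all 6 arrays, as it was for 43.8% of all genes. The median log2 ratio was 1.61 over the 10 genes and 0.22 over all genes tested.

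Hp encodes haptoglobin, which binds free hemoglobin. Its log2 ratio was 5.17, 5.10 and 4.59 in day 15 tumors 303, 313 and 318, against 4.77, 4.62 and 3.84 in day 10 tumors 302, 307 and 312. All 6 tumors lay far above the reference, and the mean log2 ratio was 4.68 ± 0.48 (SD, n = 6), with an adjusted p of 1.22e-06.

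Trf encodes transferrin, the iron carrier of plasma. Transferrin had a log2 ratio of 2.48, 2.13 and 2.60 in day 15 tumors 303, 313 and 318, against 2.14, 2.14 and 2.30 in day 10 tumors 302, 307 and 312. The 6 tumors differed little, with a mean of 2.30 ± 0.20 (SD, n = 6) and an adjusted p of 2.26e-06. Trf had the narrowest range of ratios among the 10 genes, 0.47 log2 units.

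Ambp encodes a precursor that is cut into alpha-1-microglobulin, which binds heme, and bikunin, a protease inhibitor. The log2 ratio of Ambp was 7.47, -0.99 and 7.93 in day 15 tumors 303, 313 and 318, against 7.27, 7.17 and 7.20 in day 10 tumors 302, 307 and 312. In 5 tumors the ratios lay within 1 log2 unit of each other, and tumor 313 fell below the reference. The mean was 6.01 ± 3.44 (SD, n = 6), with an adjusted p of 0.00287. In Cy5 the probe was well above background in every tumor but 313.

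Hpx encodes hemopexin, which binds heme. Hemopexin had a log2 ratio of 1.62, -2.94 and 2.92 in day 15 tumors 303, 313 and 318, against 1.66, 1.28 and 2.17 in day 10 tumors 302, 307 and 312. Tumor 313 lay below the reference and the other 5 above it. The mean log2 ratio of 1.12 ± 2.07 (SD, n = 6) did not pass (adjusted p = 0.187).

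Alb encodes albumin, the most abundant plasma protein, which carries fatty acids, bilirubin and many drugs. The log2 ratio of Alb was 2.75, -2.48 and 2.95 in day 15 tumors 303, 313 and 318, against 2.58, 2.26 and 3.06 in day 10 tumors 302, 307 and 312. Again 5 tumors clustered above the reference while 313 lay below it. The mean was 1.85 ± 2.14 (SD, n = 6), with an adjusted p of 0.0481. This call was lost under 9 of the 14 alternatives, including the removal of any single tumor other than 313.

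Ttr encodes transthyretin, which carries thyroxine and holds retinol binding protein in plasma. For Ttr the log2 ratio was 3.67, -0.19 and 4.32 in day 15 tumors 303, 313 and 318, against 3.21, 2.79 and 3.73 in day 10 tumors 302, 307 and 312. Its Cy3 signal was not well above background on any array, so the difference is a bound. On average over the tumors, Ttr was at least 6.25-fold higher than in the reference. That average takes in 313 at its measured signal, although Cy5 was not well above background there, so the bound does not hold for 313 itself. The test of the fitted log2 ratio, 2.92, gave an adjusted p of 0.00313. Ttr passed the filter on dim probes through the tumor channel alone.

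Rbp4 encodes the plasma carrier of retinol. Its log2 ratio was -0.10, -2.47 and 0.78 in day 15 tumors 303, 313 and 318, against -0.02, -0.07 and 0.01 in day 10 tumors 302, 307 and 312. Tumor 313 was lowest and 318 highest, and the other 4 lay between -0.10 and 0.01. The mean of -0.31 ± 1.11 (SD, n = 6) did not pass (adjusted p = 0.483). With median centring in place of loess, Rbp4 was called lower than the reference, at -1.28.

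Ahsg encodes fetuin-A, a plasma protein that binds calcium phosphate. For Ahsg the log2 ratio was 2.21, 0.25 and 4.28 in day 15 tumors 303, 313 and 318, against 0.58, 0.25 and 0.65 in day 10 tumors 302, 307 and 312. Tumor 318 was highest and 303 next. The probe was well above background in Cy5 only in 303, 318 and 312, and in Cy3 only on the array of 318. With the reference at background on the other 5 arrays, the fitted log2 ratio of 1.37 (adjusted p = 0.0316) is not an exact size, and the call was lost without any single tumor other than 313 and without background correction.

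Fetub encodes fetuin-B, an inhibitor of the protease ovastacin. Its log2 ratio was 1.72, -3.95 and 1.67 in day 15 tumors 303, 313 and 318, against 1.61, 1.59 and 2.57 in day 10 tumors 302, 307 and 312. Tumor 313 had the lowest ratio of any carrier gene in any tumor, and the other 5 were above the reference. The mean of 0.87 ± 2.39 (SD, n = 6) did not pass (adjusted p = 0.320).

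Itih2 encodes a heavy chain of inter-alpha-trypsin inhibitor, which is joined to bikunin and stabilises hyaluronan. The log2 ratio of Itih2 was 1.06, -2.21 and 1.17 in day 15 tumors 303, 313 and 318, against 0.75, 0.43 and 1.03 in day 10 tumors 302, 307 and 312. The mean of 0.37 ± 1.29 (SD, n = 6) did not pass (adjusted p = 0.465), and with median centring it turned to -0.55. Without tumor 313, Hpx (1.99) and Fetub (1.81) passed as well, which made 8 of 10. Over all genes, 24.6% were called higher then. The 8 again included Ttr and Ahsg, so this count is not read against that share either.

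**Figure D1:**
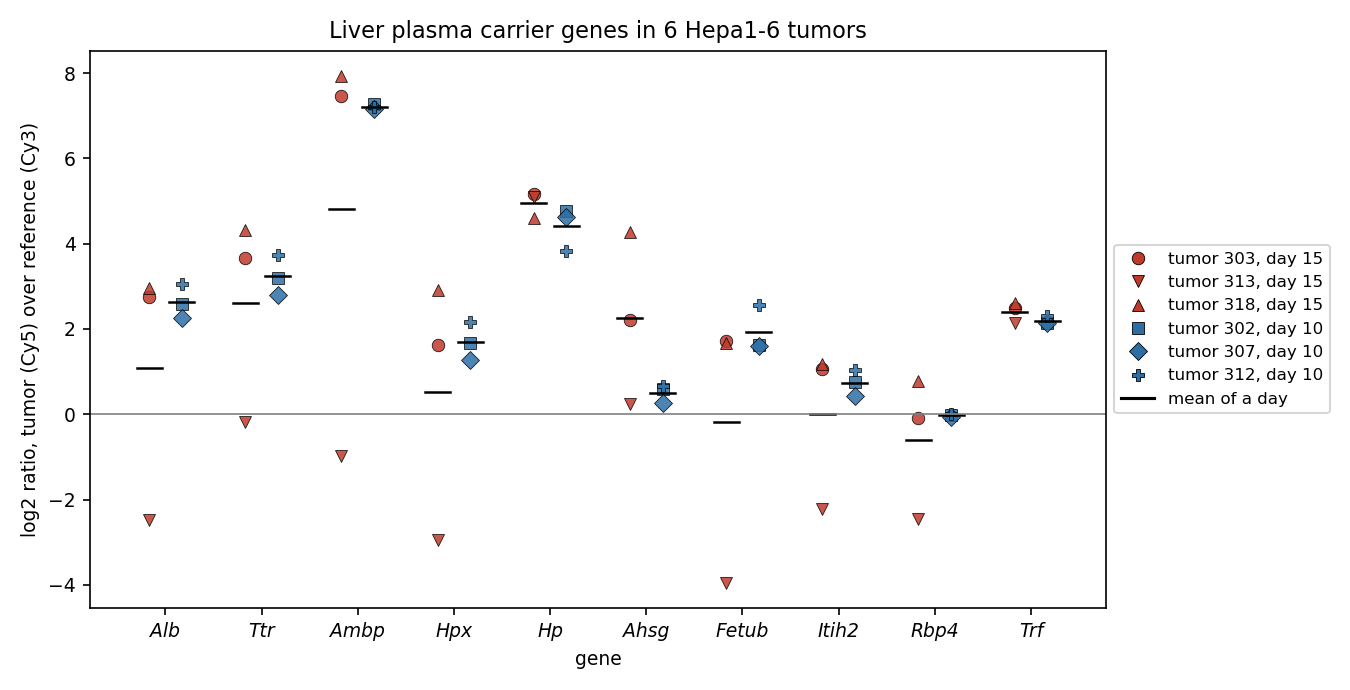
Log2 ratio of tumor (Cy5) over reference (Cy3) on the vertical axis for the 10 carrier genes, with day 15 tumors in red left of day 10 tumors in blue; each point is 1 tumor and each bar is the mean of a day. Tumor 313 (triangle pointing down) lies apart from the other 5 tumors in 7 genes but not in Hp, Trf or Ahsg.

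The second comparison asked whether the carriers differed between day 15 and day 10. None of the 10 genes passed (adjusted p = 0.999 for each). Over all 15804 genes tested, 9 passed, or 0.0569%. At an unadjusted p under 0.05 the count was 0 of 10, against 3.86% of all genes. The values of the days overlapped in all 10 genes, and they were apart in 8.95% of all genes. With shares this small, 0 of 10 in either count does not mark the carriers off from other genes.

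The day 15 mean was lower in 7 genes and higher in Hp, Ahsg and Trf. Fetub averaged -0.19 ± 3.26 at day 15 and 1.93 ± 0.56 at day 10 (SD, n = 3 each), and Ambp averaged 4.80 ± 5.02 at day 15 and 7.21 ± 0.05 at day 10 (SD, n = 3 each). Without 313 the differences of Alb (0.22), Ttr (0.75), Ambp (0.49), Hpx (0.57), Itih2 (0.37) and Rbp4 (0.37) turned positive, and none passed. Ahsg, well above background in 1 of the 3 day 10 tumors, had the largest difference then, 2.75, with an adjusted p of 0.670 (no lower than 0.272 under any alternative run). Skeletal muscle markers moved with the day: the median of 11 genes was -0.00, 0.03 and -0.03 in tumors 303, 313 and 318, against 4.18, 2.63 and 3.60 in tumors 302, 307 and 312. Their part in any difference of the carriers was not tested. The day 15 arrays lay on 1 slide and the day 10 arrays on another, so slide and day cannot be told apart.

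In the tumor channel alone, no carrier passed between the days (adjusted p of 0.858 to 0.967), and 0 of all 15804 genes passed, with 2.91% at an unadjusted p under 0.05. In the reference channel, 0 of the 8 carriers tested and 0 of all 13932 genes passed between the arrays of the days, with 1.61% of all genes at an unadjusted p under 0.05.

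Tumor 313 set most of the spread. It was the lowest tumor in every carrier but Hp, 9 of 10, against 30.4% of all genes. For Trf it lay barely below tumors 302 and 307. For Ahsg it was at 0.248 and tumor 307 at 0.255, with Cy5 well above background in neither. In 7 genes it lay at least 1 log2 unit under every other tumor: Alb, Ambp, Fetub, Hpx, Itih2, Rbp4 and Ttr. Over all 16134 genes with a value in each tumor, 513 did so, or 3.18%. The difference between 313 and the mean of the other 5 tumors was -5.78 for Fetub, -5.20 for Alb, -4.87 for Hpx, -3.10 for Itih2 and -2.59 for Rbp4. Hp was 0.51 log2 units above the other 5 in 313, and Trf 0.20 units below them (a difference of -0.20). For Ambp the Cy5 signal of 313 was not well above background, so its low ratio there is a limit. For Ttr neither dye was well above background on that array, so its ratio there sets no limit. No exact difference is given for these genes. These comparisons are descriptions without a test.

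The intensities show the same in the tumor dye. After subtraction of the local background, the Cy5 intensity of Alb was 130866, 4070 and 209926 in tumors 303, 313 and 318, against 187608, 151106 and 204381 in tumors 302, 307 and 312. The Cy3 intensity of Alb on the same arrays stayed between 40022 and 54214. Ambp had a Cy5 intensity of 87852, 57.3 and 225821 in tumors 303, 313 and 318, against 112664, 89942 and 119401 in tumors 302, 307 and 312. Fetub had 7343, 112 and 9249 in tumors 303, 313 and 318, against 9726, 7930 and 14335 in tumors 302, 307 and 312, and its Cy3 intensity stayed between 3953 and 4708. Hpx had 4196, 133 and 13587 in tumors 303, 313 and 318, against 5838, 4201 and 7090 in tumors 302, 307 and 312, and its Cy3 intensity stayed between 2460 and 2599. In each of these genes tumor 313 was the only one far below the rest. The Cy3 intensity of Ambp was also low on the array of 313, at 189, where the other 5 arrays had 936 to 1392. For Ahsg, Cy5 was 8737 in tumor 318 and at most 383 in the others, and Cy3 was 538 on the array of 318 and at most 55.1 on the others. For Hp, tumor 303 was highest in both dyes and tumor 312 lowest in Cy5. In Ambp, Hp and Ahsg the reference channel thus moved with the tumor channel on the same spots, and the part of this in the ratios was not tested. For Rbp4 the Cy3 intensity was highest on the array of 313, at 314433, where the others had 76078 (312, lost signal) to 232851. In 313, Rbp4 differed from the mean of the other 5 tumors by -2.59 in the log2 ratio and by -1.92 in log2 Cy5 signal.

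**Figure D2:**
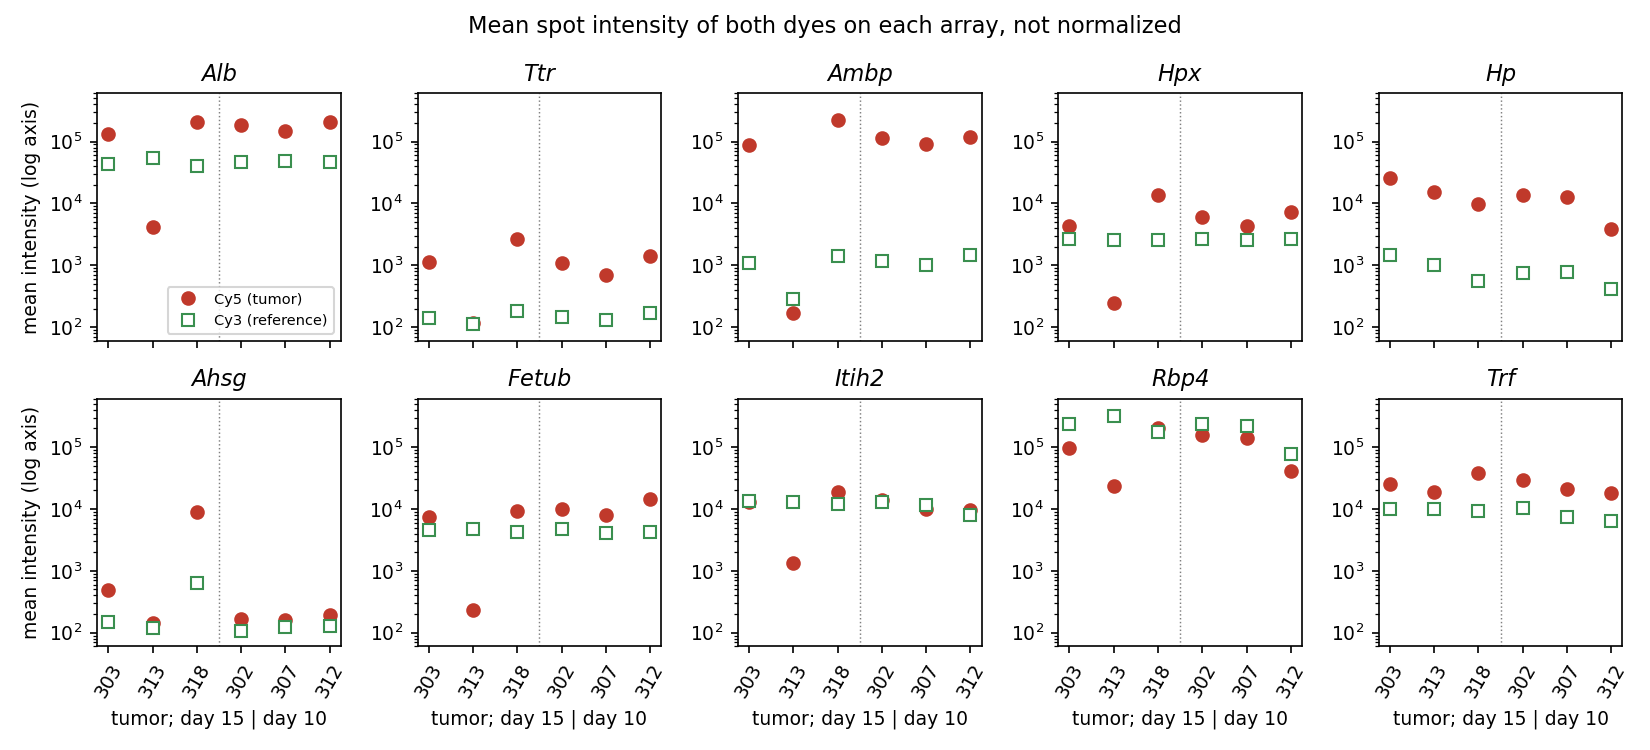
Mean spot intensity (log axis, not normalized, background not subtracted) of tumor (Cy5, filled circles) and reference (Cy3, open squares) for each carrier gene on the 6 arrays, day 15 tumors left of the dotted line and day 10 tumors right of it. The Cy5 points of tumor 313 drop for Alb, Ttr, Ambp, Hpx, Fetub, Itih2 and Rbp4 while most Cy3 points stay level.

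Tumor 318 was the highest tumor in 7 of the 10 carriers, against 21.8% of all genes. Ahsg alone stood at least 1 log2 unit over all other tumors there, as did 0.291% of all genes. Over the 6 tumors, the Pearson correlation of a carrier's log2 Cy5 signal with the mean of the other 9 was 0.78 to 0.99 for Alb, Ttr, Ambp, Hpx, Fetub, Itih2 and Rbp4. It was 0.46 for Ahsg, 0.47 for Trf and -0.43 for Hp. These values depended on 313. Without it they were 0.45 for Alb, 0.06 for Fetub and 0.07 for Rbp4, but 0.94 for Trf and 0.74 for Ahsg. Ttr, Ambp, Hpx and Itih2 stayed between 0.78 and 0.89, and Hp was at -0.35. All points share the arrays and their depth.

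The 8 genes outside the group with the most similar Cy5 pattern over the 6 tumors, of 12374 compared, were Btg3, Zc3h12c, Tspan12, Psip1, Grb14, Aplf, Rbbp7 and Ccl25. Their Pearson correlations with the mean of the centred carrier signals were 0.993 to 0.999, and 0.924 to 0.987 without tumor 313. Btg3, an antiproliferative gene, came closest. Its log2 Cy5 signal was 14.00, 12.00 and 14.41 in tumors 303, 313 and 318, against 13.83, 13.60 and 14.06 in tumors 302, 307 and 312.

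Of 14 relatives of the carriers, 8 were tested and 0 were called in either direction against the reference. Their median log2 ratio was 0.89. The albumin relative Afp, which encodes the fetal plasma protein alpha-fetoprotein, had log2 ratios of 2.22, -4.75 and 3.25 in tumors 303, 313 and 318, against 2.36, 2.23 and 2.86 in tumors 302, 307 and 312. Its log2 Cy3 signal was 17.22 on the array of 313 and 15.37 to 16.19 on the others. In 313, Afp thus differed from the mean of the other tumors by -7.33 in the ratio and by -5.92 in Cy5. Afp, the vitamin D carrier Gc and the transferrin relative Meltf were at least 1 log2 unit under every other tumor in 313, with Gc and Meltf not well above background in Cy5 there. The other albumin relative Afm was -0.64 in 313 but also -0.03 in 312, where its probe lay in the area of lost signal. The acid glycoproteins Orm1 and Orm2 went the other way, with 2.46 and 2.16 in 313, but were well above background in Cy5 on 2 arrays only and were not tested. Itih1 was not well above background in any tumor, and Itih3, Kng1 and Lcn2 were too dim to test. Itih4, Itih5, Hrg and Ltf differed from the mean of the other tumors by at most 0.40 log2 units in 313.

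The liver-enriched transcription factors also varied in 313. Cebpa, Cebpb and Cebpd were higher than the reference, and Hnf4a (-1.92) and Nr1h4 (-1.02) were lower. In 313, Foxa2, Foxa3, Hnf4a, Prox1 and Onecut1 lay at least 1 log2 unit under every other tumor. Foxa2 was at -5.71 there and between -0.48 and 0.00 elsewhere. Foxa3 was at -3.75, Hnf4a at -3.60, Prox1 at -2.49 and Onecut1 at -2.21. Foxa3, Prox1 and Onecut1 were not well above background in Cy5 in 313, so these 3 ratios are limits. The probes of Foxa2, Prox1 and Onecut1 lay in the area of lost signal on the array of 312. Cebpa, at 2.92, was higher in 313 than in any other tumor. Cebpb and Cebpd were in the range of the other tumors. Foxa1, Nr5a2, Nr1h4 and Ppara were lowest in 313 by smaller amounts, Nr1i3 was highest there, and Nr0b2 and Nr1i2 were never well above background.

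**Figure D3:**
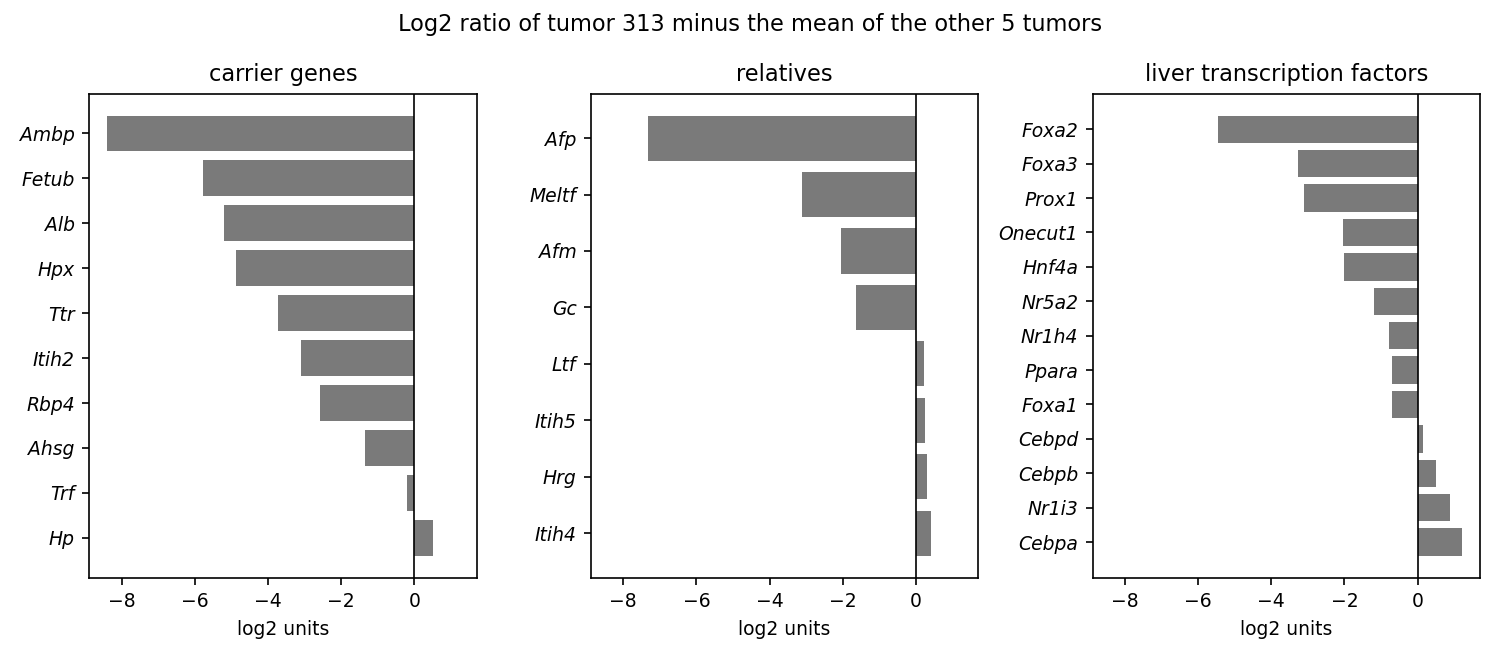
Log2 ratio of tumor 313 minus the mean of the other 5 tumors (horizontal axis, log2 units) for the carrier genes, their relatives and liver transcription factors. Each bar is 1 gene. Bars of Ambp, Gc, Meltf, Foxa1, Foxa3, Prox1 and Onecut1 are limits, since 313 was not well above background in Cy5 there. For Ttr and Ahsg neither dye was well above background on the array of 313, so their bars are neither exact nor limits. Most carriers and the factors Foxa2, Foxa3 and Prox1 lie far below 0, whereas Hp and Cebpa lie above it.

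Receptors that take up the carriers or their cargo were tested in the same way. Of 11 tested, 8 were higher in tumors than in the reference and 1, the transferrin receptor Tfrc, was lower at -1.63. Over all genes, 25.5% were called higher and 9.75% lower. Stra6l and Tfr2 entered the test through the tumor channel alone, so the count of 8 is not read against that share. In 313, 0 of 11 lay at least 1 log2 unit under every other tumor. The hemoglobin-haptoglobin receptor Cd163 averaged 4.44 ± 0.53, the hemopexin receptor Lrp1 3.54 ± 0.38 and the albumin-recycling receptor Fcgrt 3.1 ± 0.53 (SD, n = 6). The macrophage protein Cd5l averaged 5.40 ± 0.53 (SD, n = 6). The retinol binding protein receptor Stra6l was called higher, but its Cy3 signal was well above background on 1 array only, so no exact ratio is given. The asialoglycoprotein receptor genes Asgr1 (1.08) and Asgr2 (1.51) were called too. Tfr2 was at least 2.24-fold higher in tumors, since its Cy3 signal was not well above background on any array. Cubn (0.42) and Stra6 (-0.56) were not called, and Lrp2 was too dim to test.

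Among the other liver plasma proteins, 21 of 35 tested were higher in tumors than in the reference and 0 were lower. Over all genes, 25.5% were called higher and 9.75% lower. Some of the 21 entered the test through the tumor channel alone, so these counts are not read against those shares. In 313, 15 lay at least 1 log2 unit under every other tumor (3.18% of all genes), and in 318, 10 lay at least 1 log2 unit over every other tumor (0.291% of all genes). The median log2 ratio of these 35 genes was 2.22, 0.02 and 2.72 in tumors 303, 313 and 318, against 1.91, 1.69 and 1.91 in tumors 302, 307 and 312.

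Markers of other cells moved with some of these patterns. The 10 adipocyte markers tested had a median log2 ratio of 4.42, 5.07 and 0.82 in tumors 303, 313 and 318, against 1.95, 2.84 and 0.68 in tumors 302, 307 and 312. Their summed Cy5 intensity above local background spanned 32831 to 485588 at day 15 and 60341 to 148021 at day 10, with 303 and 313 highest. Hp was likewise highest in 303 and 313, and the part of fat cells in its level was not tested. Medians of the other cell type lists were highest in 313 as well for fibroblast markers (6.18 in 313, 4.91 to 5.64 elsewhere), endothelial markers (3.84 in 313, 2.63 to 3.54 elsewhere), T cell markers (4.91 in 313, 2.67 to 4.84 elsewhere), macrophage markers (5.34 in 313, 4.69 to 5.21 elsewhere) and neutrophil markers (3.26 in 313, 2.65 to 3.19 elsewhere). Red cell markers were highest in 303, at 3.87. The hepatoma and epithelial markers had a median of 0.13 in 313, within the range of the other tumors (-0.28 to 0.86). The part of these cells in the low carrier values of 313 was not tested. In bulk tissue, fewer cells of a type and less RNA per cell cannot be told apart.

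**Figure D4:**
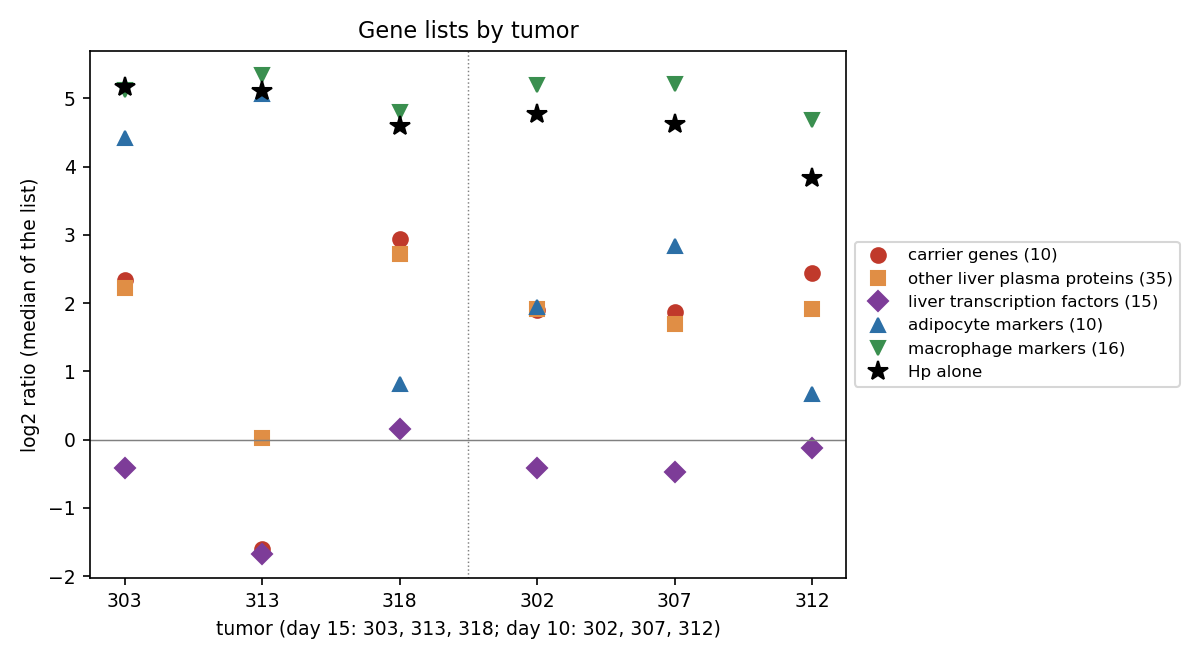
Median log2 ratio of 5 gene lists (vertical axis) in each tumor, and Hp alone as stars; day 15 tumors are left of the dotted line and the number of genes tested is in brackets. Carrier genes, other liver plasma proteins and liver transcription factors drop in tumor 313, adipocyte markers are high in 303 and 313, and macrophage markers are level.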

How the data were processed

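RNA of 6 tumors was measured on 2-colour arrays, 1 array per tumor. The deposited scanner files were written by Agilent Feature Extraction 9.1.3.1, per the file headers, and hold mean and local background intensity per spot and dye, not normalized. The log10 ratio in the authors' deposited value table equals the scanner software's log ratio of processed Cy5 over processed Cy3 at every spot. In limma 3.58.1 under R 4.3.3, intensities were background-corrected (normexp, offset 50) and log2 ratios were normalized within arrays by loess, without control and outlier spots. Probes were named by RefSeq accession or symbol, and a gene was represented by its brightest probe. Genes needed a signal well above background on at least 3 arrays. The mean of the day 15 and day 10 means was tested against 0 for tumor over reference, which leaves out the spread between reference samples. Day 15 was compared with day 10. Both tests were 2-sided (lmFit, eBayes), and p-values were adjusted by Benjamini-Hochberg over all genes. The Cy3 signal was compared between days after quantile normalization. Fits were tested on simulated data. Bounds (at least N-fold) come from single-dye signals after loess and Aquantile scaling and are open to dye bias; the dim side was taken at the higher of its own signal and the lowest signal well above background on that array. The number of arrays limits the precision.

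The carrier genes and lists were chosen with earlier results of these data known. Named genes were the carriers, their relatives, cargo receptors, liver transcription factors and the 8 genes most similar in pattern. Gpc3, Krt8, Krt18, S100a8, S100a9, Hba-a1 and Alas2 check the tissues, and Epb42, Hbb-bt and Mmp9 were picked from the marker lists after their values were seen. Some genes of these lists are not reported here. The alternatives changed background correction, normalization, filter, probe choice, the area of lost signal and each tumor in turn.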

Additional observations from a re-analysis of the deposited data

Results flagged for a closer look

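In 7 carrier genes tumor 313 lay far below the other 5, by the gap to the nearest tumor as a share of the whole range. Its log2 ratio was -2.48 for Alb (nearest 2.26), -0.19 for Ttr (nearest 2.79), -0.99 for Ambp (nearest 7.17), -2.94 for Hpx (nearest 1.28), -3.95 for Fetub (nearest 1.59), -2.21 for Itih2 (nearest 0.43) and -2.47 for Rbp4 (nearest -0.10). For independent, normally distributed values this rule flags about 1 in 20 groups of this size. The share of all genes that it flags is not given here, so the 7 are not read against that rate. Tumor 313 was the lowest in 30.4% and the highest in 33.7% of all genes. For Ambp the Cy5 signal of 313 was not well above background, so its value is a limit. For Ttr neither dye was well above background on that array, so its value sets no limit. The 7 values come from 1 array and are not independent.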

How the results depend on the processing

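No paired analysis was possible because the tumor numbers are not shared between the days. The share of calls that were higher was 72.3% with loess, 41.4% with median centring, 57.9% with the scanner's processed signals and 58% with the value table, as the median log2 ratio of all genes moved to -0.34, -0.02 and -0.02, against 0.22 with loess. Genes lower than the reference numbered 1591 with loess, 4594 with median centring, 3232 with processed signals and 3228 with the value table. Under median centring 1 carrier was lower (Rbp4) and Itih2 reversed to -0.55. Without each tumor Rbp4 ranged from -0.65 to 0.16, reversing without 313. Leaving out each tumor gave 4 to 8 carriers higher. Between the days, 9 genes passed, 1 with signal on all 6 arrays, 0 in Cy5 alone, and 2 to 26 without each tumor. Without each tumor the day difference ranged from -2.50 to 0.22 for Alb, -1.50 to 0.75 for Ttr, -3.97 to 0.49 for Ambp, -2.36 to 0.57 for Hpx, -1.32 to 0.37 for Itih2 and -1.26 to 0.37 for Rbp4, each reversing without 313, and Trf reversed to -0.15 under median centring. In Cy3, 0 to 4 genes passed without each array. No carrier passed between the days under any alternative run. The cause of these changes was not tested. Dim probes (Ahsg and Ttr, and Ambp in 313) limit what their ratios show.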
